A study of Homo sapiens with 12 samples.

Results

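Interferon-stimulated genes (ISGs) were followed in H460 and A549, both established human non-small cell lung cancer (NSCLC) lines, before and after treatment with ISP-I. ISP-I (isovalerylspiramycin I) is the active component of the macrolide antibiotic carrimycin. The members were 43 genes given by name, of 19973 genes in the table of expression values; 42 were found under their current symbol, and RIGI was found by its gene ID under its older name DDX58. The groups were H460 control, H460 with ISP-I, A549 control and A549 with ISP-I, where the control cells were non-treated and the treated cells had ISP-I at 10 µM for 48 h. Each group had 3 libraries of bulk RNA, 12 libraries in all, and no vehicle is described for the controls. No label says that the libraries came from separate cultures, so each p measures the spread between these libraries, which may be technical. Libraries carry the number of their column's order inside the group.

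Type I interferons (alpha and beta) bind the receptor IFNAR1/IFNAR2, and the kinases JAK1 and TYK2 then phosphorylate STAT2 among others. STAT2 and IRF9 are subunits of the complex ISGF3, which binds an interferon-stimulated response element (ISRE) in the promoters of the ISGs. Many ISGs encode antiviral proteins, and some, such as the IFITs, can also be switched on directly by IRF1, IRF3 or IRF7. Tumor lines often keep a part of these genes active without added interferon.

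The promoters of the members are shown first, since an ISRE is a known feature of many ISG promoters. A RefSeq window (GRCh38.p14, 250 bases before to 50 after a start) was matched for 35 of the 43 members; DHX58, IRF7, IFIT2, OAS2, OASL, IFITM2, USP18 and MX2 had none. The letters GAAANNGAAA, or TTTCNNTTTC on the other strand, stood in 28 of the 46 windows of the members (60.9%) and in 1255 of 35116 windows of all genes (3.57%), and 24 of the 35 members had at least 1 such window. The stretches below, 1 for each gene, belong to members with these letters that rose or fell more than 2-fold in at least 1 line. The 2-fold is on the log2(FPKM + 1) scale used below, which understates the change of low genes. PARP9 and DTX3L, which share a stretch, are shown as well. Each stretch is 30 bases long, 5′ to 3′ on the gene's strand, with the match in capitals.
IFIT3, chr10:89332468-89332497, plus strand: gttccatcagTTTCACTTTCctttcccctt
IFIT5, chr10:89414513-89414542, plus strand: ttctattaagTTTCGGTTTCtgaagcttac
ISG15, chr1:1013380-1013409, plus strand: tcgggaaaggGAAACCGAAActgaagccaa
ISG20, chr15:88638937-88638966, plus strand: taacaaactaGAAACTGAAAcagggtcggg
OAS3, chr12:112938452-112938481, plus strand: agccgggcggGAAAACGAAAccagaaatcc
LGALS3BP, chr17:78979962-78979991, minus strand: gtggtttctgGAAATCGAAAgtagactctt
IFI6, chr1:27672288-27672317, minus strand: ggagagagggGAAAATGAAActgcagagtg
IFITM3, chr11:320876-320905, minus strand: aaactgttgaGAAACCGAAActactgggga
IFI44, chr1:78649761-78649790, plus strand: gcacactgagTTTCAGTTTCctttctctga
DTX3L, chr3:122564322-122564351, plus strand: ccagggaagcGAAACTGAAActttgcgccc
PARP9, chr3:122564322-122564351, minus strand: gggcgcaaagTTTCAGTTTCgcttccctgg

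The first 4 of these genes rose in at least 1 line, and the next 5 fell. Of the members with a window, the letters were found in 4 of 5 that rose in H460, 9 of 16 that fell and 11 of 13 that passed in neither direction. In A549 they were found in 4 of 4 that rose, 5 of 8 that fell and 11 of 17 that did neither. A match describes letters only, and no binding was measured.

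Levels are FPKM, the fragments of a gene relative to its length and to the reads of the library. Reads on genes numbered 14225849 to 17874422 per library, and the reads behind each FPKM were recovered from the values. ISP-I library 3 of H460 stood apart from its group: the chi-square per degree of freedom was 91.98 between it and library 2, against 21.54 between libraries 1 and 2. It was the library farthest from the other 2 for 22 of 41 members (53.7%) and for 47.5% of all genes tested. A549 control library 3 was likewise farthest for 45.7% of the members and 57.4% of all genes. The keratins KRT8, KRT18 and KRT19, which mark epithelial cells, were at a mean of 45.6 FPKM or more in every group. PTPRC, CD3E and LYZ (leukocytes), PECAM1 (endothelium) and DCN (fibroblasts) were at a mean of at most 0.0261 FPKM in any group, while the fibroblast-linked COL1A1 was at 0.764 to 1.19 FPKM and LUM at 0.230 FPKM in H460 controls. VWF, of endothelium, rose in A549 from 0.00218 to 0.303 FPKM, and was tested only through its level with ISP-I. CDH5, also of endothelium, was lower in A549 with ISP-I (0.0976 and 0.0146 FPKM) but was under the level tested. Of 5 epithelial markers, 4 fell in A549, among them KRT8 from 649.9 to 323.6 FPKM and CDH1 from 4.90 to 0.756 FPKM. In H460 KRT18 rose from 70.3 to 133.6 FPKM and KRT19 fell from 121.9 to 56.9 FPKM, CDH1 had 0 reads in controls, and EPCAM was at a mean of at most 0.132 FPKM. The monocyte marker CD14 fell in H460 from 5.92 to 1.26 FPKM and in A549 from 1.07 to 0.144 FPKM. IL3RA, carried by plasmacytoid dendritic cells, which make interferon, rose in H460 from 2.06 to 12.6 FPKM and in A549 from 4.91 to 8.06 FPKM, while CLEC4C and LILRA4 of the same cells had means of at most 0.128 and 0.536 FPKM. PDGFRB, a fibroblast marker, rose in H460 from 0.543 to 2.40 FPKM and in A549 from 0.0194 to 0.278 FPKM. In A549 PDGFRB was tested only through its level with ISP-I. The part of these libraries and markers in the results was not tested.

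The members spanned a wide range of levels. In H460 controls 25 of 43 had a mean of at least 1 FPKM and 7 of at least 10 FPKM, against 21 and 4 in A549 controls. LGALS3BP had the highest control level in each line, at 160.07 FPKM ± 10.2 (SD, n = 3) in H460 and 89.5 ± 11.1 in A549, and IFITM3 was level with it in H460 at 159.5 ± 7.26 FPKM. Some members were near 0 in all 4 groups: MX1 had a mean of at most 0.224 FPKM, MX2 at most 0.0156 FPKM, and XAF1 gave 1 read in all 12 libraries.

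**Figure D1:**
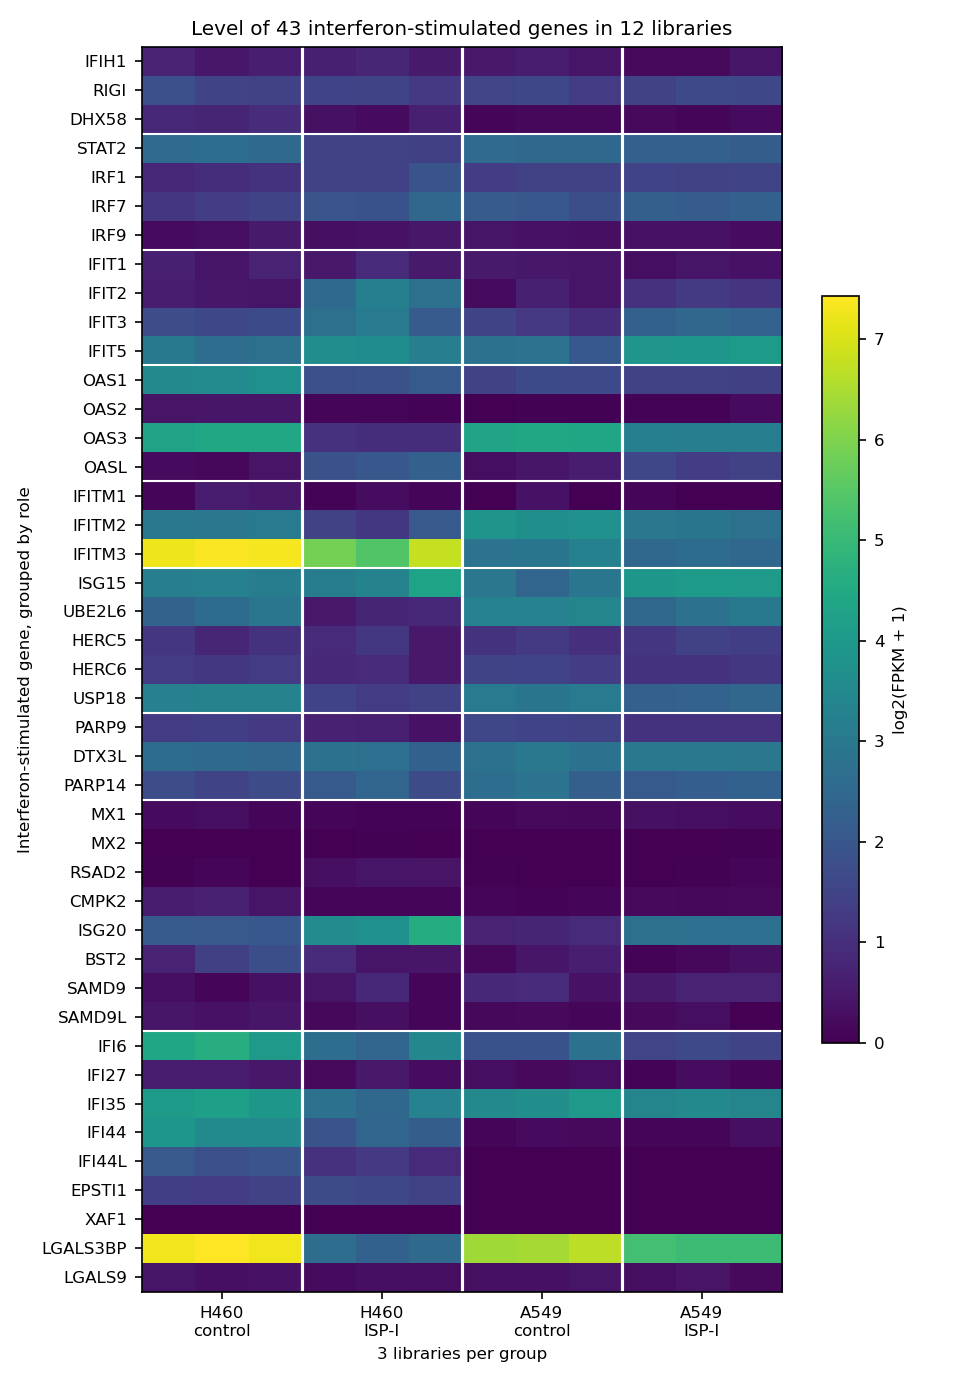
Level of the 43 members in the 12 libraries, as log2(FPKM + 1), with the members in rows grouped by role and the libraries in columns grouped by line and treatment. IFITM3 (H460) and LGALS3BP (both lines) are the brightest rows in the controls, LGALS3BP darkens in both ISP-I groups, and MX2 and XAF1 are near 0 throughout.

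In H460, 41 members had a mean of at least 0.1 FPKM and were tested. After ISP-I 8 rose and 20 fell (adjusted p under 0.05, limma on log2(FPKM + 1), Benjamini-Hochberg over all genes). That was 19.5% higher and 48.8% lower, and of all 13423 genes tested 27.6% were higher and 41.5% lower. RSAD2, which rose, averaged under 0.1 FPKM in controls, and OAS2 and CMPK2, which fell, did so with ISP-I. These were tested only through the group where they were high, so their calls could hardly have gone the other way. Past a 2-fold change on the log2(FPKM + 1) scale, which understates the change of low genes, 3 members rose and 11 fell, against a background of 10.5% higher and 15.2% lower. With a pseudocount of 0.1 these were 7 and 17 members, against 17.3% and 25.8% of all genes. The members' median log2 change was -0.23 and that of all genes -0.15. With median-of-ratios scaling the median of all genes in H460 was 0.01, and 11 members rose and 17 fell, while 34.7% of all genes were higher and 32.3% lower. ISG15, PARP14 and EPSTI1 then passed, and BST2, SAMD9L and IFI27 no longer did. Past 2-fold with this scaling, 4 members rose and 9 fell, against 14.4% and 11.1% of all genes. In the fit without scaling, the members past 2-fold moved by at least 1.03 on the log2 scale relative to the all-gene median. In bulk RNA, fewer cells expressing a gene and less RNA per cell cannot be told apart.

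In A549, 35 members were tested, of which 6 rose (17.1%) and 10 fell (28.6%). Of all 13705 genes tested, 30.5% were higher and 27% lower. Past a 2-fold change on the same scale, 5 members rose and 2 fell, and the background was 4.2% higher and 3.51% lower. The members' median log2 change was -0.08, and that of all genes 0.02. Of the 35 members tested in both lines, 15 passed in each line, all in the same direction: IFIT2, IFIT3, IFIT5, OASL and ISG20 rose, and STAT2, OAS3, IFITM2, IFITM3, UBE2L6, HERC6, USP18, PARP9, IFI6 and LGALS3BP fell. None passed in opposite directions in this fit. How many of all genes passed in both lines in the same direction was not counted. The agreement is therefore not set apart from that of other genes.

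**Figure D2:**
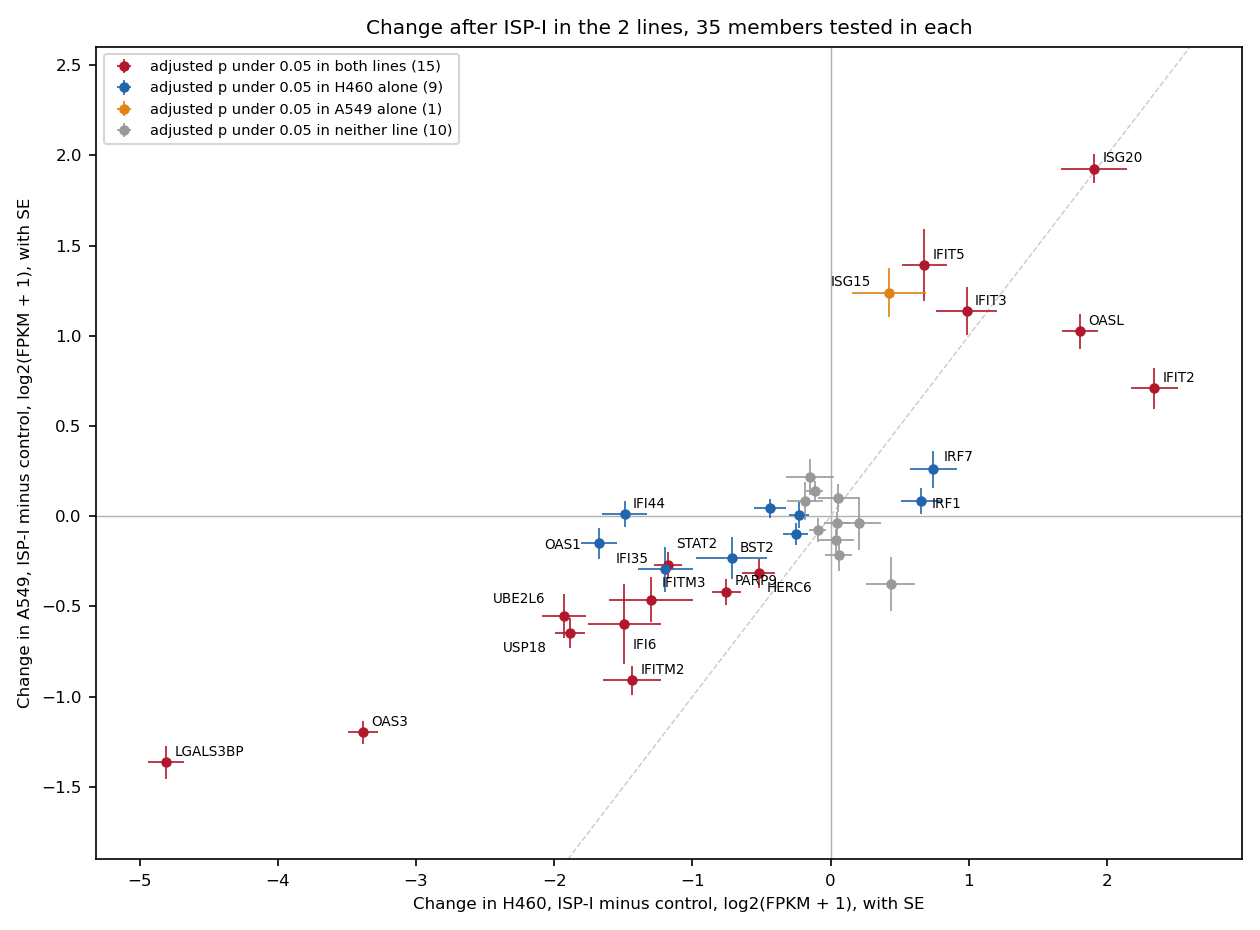
Change after ISP-I in H460 (x axis) and A549 (y axis) as the difference of mean log2(FPKM + 1), with SE bars, for the 35 members tested in both lines; the dashed line marks equal change. The 15 members that passed in both lines lie in the upper right or the lower left part of the plot, with LGALS3BP at -4.81 and -1.36 and ISG20 at 1.91 and 1.93.

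Interferons themselves were scarcely read. Of 21 interferon genes, 3 were tested, of which 3 rose in H460 and 2 in A549, where 27.6% and 30.5% of all genes were higher. IFNB1, which encodes interferon beta, had 0 reads in all 12 libraries. IFNE, an epithelial type I interferon, went from 0.502 to 1.71 FPKM in H460 (log2 change 0.83, adjusted p = 0.000757) and from 1.56 to 4.31 FPKM in A549 (1.07, adjusted p = 0.000236). IFNA1 rose as well, from 0.125 to 1.80 FPKM in H460 and, in A549, from 0.703 to 2.31 FPKM. Of the exon bases of IFNA1, 63.4% lie opposite the RNA MIR31HG, and whether strand was used in counting is not stated, so their reads cannot be told apart. IFNL1, a type III interferon, rose in H460 from 0.0582 to 0.566 FPKM (2 and 21 reads), and in A549 it was at 0.118 and 0.311 FPKM (adjusted p = 0.152). In H460 IFNL1 passed the filter of 0.1 FPKM only through its level with ISP-I, so it could hardly have been called lower.

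The receptor and JAK-STAT list held 19 genes. In H460 2 of 15 tested rose (13.3%) and 5 fell (33.3%), against 27.6% and 41.5% of all genes. In A549 4 of 17 rose (23.5%) and 7 fell (41.2%), against 30.5% and 27% of all genes. The median log2 change was -0.12 in H460 and -0.04 in A549 (all genes -0.15 and 0.02). In A549 IRF4 (0.0232 and 0.600 FPKM) and IRF8 (0.0919 and 0.353 FPKM) were tested only through their level with ISP-I. Both could hardly have been called lower. TYK2, the kinase bound to IFNAR1, fell from 16.7 ± 1.47 to 4.47 ± 0.238 FPKM in H460 (log2 change -1.69, adjusted p = 4.11e-06) and from 13.0 to 7.36 FPKM in A549 (-0.74, adjusted p = 0.000156). IFNAR1 fell in both lines, from 6.94 to 3.98 FPKM in H460 and, in A549, from 8.23 to 5.23 FPKM. JAK1 was at 9.76 and 9.78 FPKM in H460 and at 19.8 and 19.2 FPKM in A549, and passed the test in neither line. The feedback inhibitors SOCS1 and SOCS3 rose in both lines, SOCS3 from 42.3 to 79.1 FPKM in H460 and, in A549, from 9.43 to 24.3 FPKM. IFNAR2 had a mean of at most 0.0543 FPKM in any group, and readthrough transcripts share its exons.

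Among the sensors of viral RNA, which start interferon production, DHX58 fell in H460 and the other members passed in neither line. DHX58 (LGP2), a regulator of the RIG-I-like receptors, was at 0.800, 0.689 and 0.913 FPKM in H460 controls and at 0.263, 0.173 and 0.582 FPKM with ISP-I. All treated libraries were below all controls (log2 change -0.44 ± 0.12 SE, adjusted p = 0.00888). RIGI, which senses RNA with a 5′ triphosphate, had means of 2.05 and 1.67 FPKM in H460 and 1.81 and 1.97 FPKM in A549, and 43.2% of its exon bases are shared with another gene. IFIH1 (MDA5), which senses long double-stranded RNA, had means of 0.532 and 0.595 FPKM in H460 and 0.405 and 0.213 FPKM in A549.

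Other sensors and the adaptors that carry their signal moved in both directions. Of the 17 tested in each line, 4 rose (23.5%) and 12 fell (70.6%) in H460, against 27.6% and 41.5% of all genes. In A549 4 rose (23.5%) and 7 fell (41.2%), against 30.5% and 27% of all genes. Their median log2 change was -0.70 in H460 and 0.06 in A549 (all genes -0.15 and 0.02). MAVS, the adaptor of RIG-I and MDA5, fell from 19.9 to 4.25 FPKM in H460 (log2 change -1.99, adjusted p = 1.6e-06) and from 27.7 to 17.8 FPKM in A549 (-0.60, adjusted p = 0.000152). The kinase IKBKE fell from 4.69 to 0.527 FPKM in H460 and, in A549, from 5.82 to 2.91 FPKM. The DNA sensor CGAS rose from 3.68 to 7.35 FPKM in H460 and, in A549, from 5.41 to 8.66 FPKM, while its partner STING1 fell from 1.24 to 0.212 FPKM in H460 and was at 0.158 and 0.202 FPKM in A549. IFI16, another DNA sensor, rose from 11.5 to 71.6 FPKM in H460 and, in A549, from 0.576 to 2.76 FPKM. SAMHD1, which breaks down nucleotides that viruses need, fell in both lines. IRF3, the factor activated below these adaptors, rose from 13.0 to 21.2 FPKM in H460, and TBK1, the kinase that activates it, passed in neither line. Of the exon bases of IRF3, 19.3% lie opposite the gene BCL2L12.

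The 4 transcription factor members did not move together. STAT2, a subunit of ISGF3, was at 5.09, 5.40 and 4.92 FPKM in H460 controls and at 1.72, 1.75 and 1.65 FPKM after ISP-I. The treated libraries were close to each other and all under the controls (log2 change -1.18 ± 0.10 SE, adjusted p = 1.49e-05). In A549 STAT2 was at 5.05, 4.63 and 4.58 FPKM in controls and 3.86, 3.83 and 3.61 FPKM with ISP-I, again without overlap, and the fall was smaller (-0.27 ± 0.08 SE, adjusted p = 0.0152). This call was lost without A549 control library 1 (-0.23, adjusted p = 0.0541) or without ISP-I library 3 (-0.25, adjusted p = 0.0636). The change of STAT2 was more negative in H460 by 0.91 on the log2 scale (adjusted p = 1.73e-05), short of the 2-fold difference set for a call.

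IRF9, the DNA-binding subunit of ISGF3, was at a mean of 0.247 to 0.305 FPKM in the 4 groups and passed in neither line; 27.2% of its exon bases are shared with other genes. IRF1, an activator of interferon genes and ISGs, was at 0.768, 0.965 and 1.15 FPKM in H460 controls and 1.76, 1.78 and 2.82 FPKM with ISP-I. It rose (log2 change 0.66, adjusted p = 0.0038) with no overlap, and ISP-I library 3 was the highest; 22.9% of its exon bases lie opposite other genes. IRF7, which amplifies interferon alpha production, was at 1.28, 1.56 and 1.88 FPKM and then 2.89, 2.69 and 4.49 FPKM in H460. It rose too (0.74, adjusted p = 0.0042). In A549 the means were 1.67 and 1.83 FPKM for IRF1 and 2.97 and 3.73 FPKM for IRF7, and neither passed (adjusted p = 0.361 and 0.0626). The difference between lines was 0.57 for IRF1 (adjusted p = 0.0124) and 0.48 for IRF7 (adjusted p = 0.0698), both under the 2-fold set for a call.

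The IFIT proteins bind foreign RNA and can block its translation, and 3 of the 4 rose in both lines. IFIT2, which also takes part in cell death, was at 0.512, 0.388 and 0.329 FPKM in H460 controls and 4.79, 8.33 and 5.74 FPKM with ISP-I. The groups lay far apart, with a mean 15.3 times higher (log2 change 2.34 ± 0.17 SE, adjusted p = 6.7e-06). In A549 IFIT2 was at 0.173, 0.584 and 0.349 FPKM in controls and 1.10, 1.41 and 1.16 FPKM with ISP-I. It rose there as well, by less (0.71 ± 0.11 SE, adjusted p = 0.000962). Of its exon bases 13.6% lie within those of other genes.

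IFIT3, the partner that stabilizes IFIT1, was at 2.38, 2.05 and 2.17 FPKM in H460 controls and 5.73, 7.55 and 3.40 FPKM with ISP-I. The lowest treated library, library 3, was still above all controls (log2 change 0.98 ± 0.22 SE, adjusted p = 0.00376). In A549 IFIT3 was at 1.86, 1.34 and 0.961 FPKM and then 3.99, 4.47 and 4.09 FPKM. The groups did not overlap (1.14 ± 0.13 SE, adjusted p = 0.000182). IFIT5, which binds tRNA and uncapped RNA, went from 7.02, 5.26 and 5.73 FPKM to 11.4, 11.4 and 8.03 FPKM in H460 (0.68, adjusted p = 0.00538). In A549 it went from 5.97, 6.11 and 3.09 FPKM to 13.7, 13.99 and 15.6 FPKM (1.39, adjusted p = 0.000509). The low control was library 3, and the groups lay apart in both lines. IFIT1, which binds caps that lack 2′-O-methylation, passed in neither line, with means of 0.528 and 0.579 FPKM in H460 and 0.398 and 0.274 FPKM in A549.

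**Figure D3:**
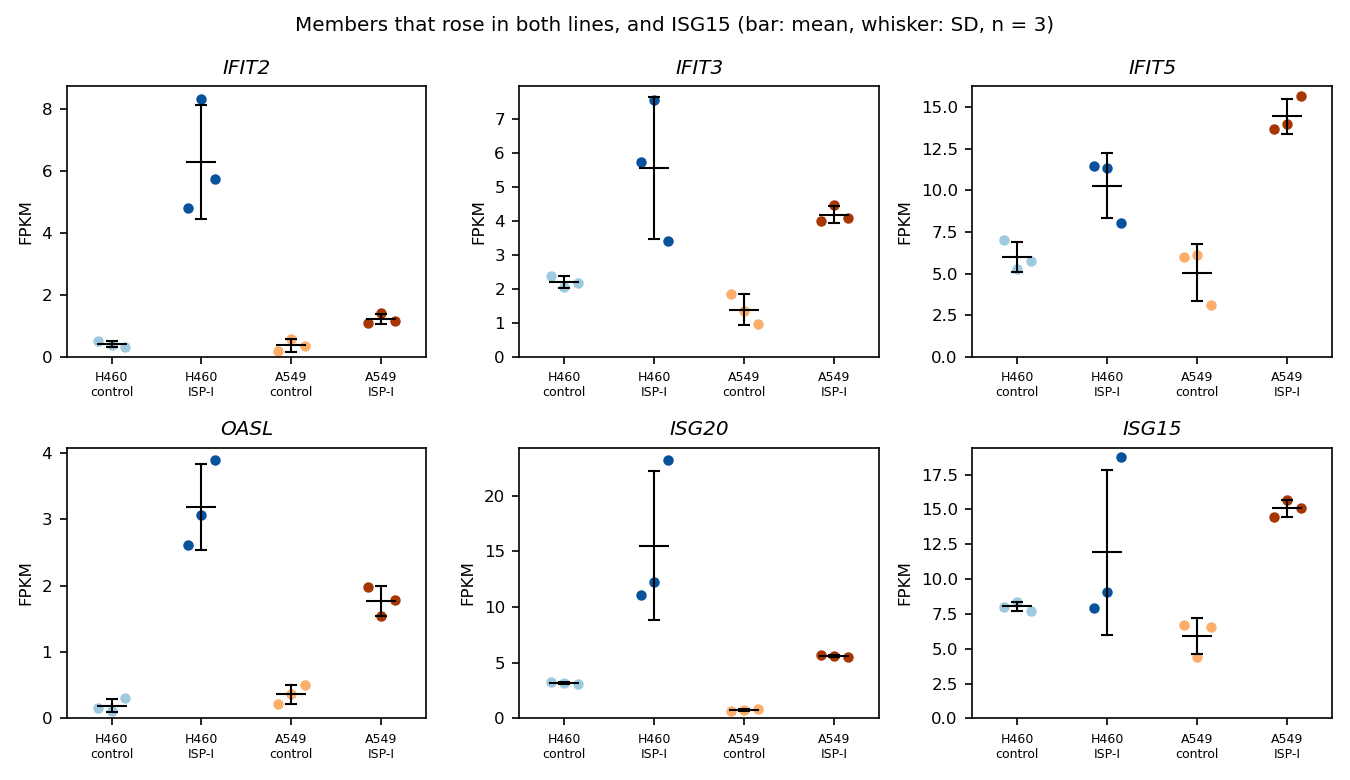
FPKM of IFIT2, IFIT3, IFIT5, OASL, ISG20 and ISG15 in each library, on a linear axis from 0 for each gene; points are libraries, bars the mean and whiskers the SD (n = 3 per group). The treated points are above all controls of the same line in every panel except ISG15 in H460, where treated library 1, at 7.94 FPKM, lies among controls of 7.74 to 8.35 FPKM. The genes shown were chosen by their calls, and how many of all genes separate in this way was not counted.

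The OAS family split. The OAS enzymes make 2′-5′ oligoadenylate from double-stranded RNA and so activate RNase L, while OASL lacks this activity and enhances RIG-I. In H460 OAS1, OAS2 and OAS3 fell and OASL rose. OAS3, which has 3 OAS units, was at 18.4, 20.3 and 20.9 FPKM in H460 controls and 1.08, 0.971 and 0.950 FPKM with ISP-I. The treated libraries were close to each other and far under the controls (ratio of means 0.0503, log2 change -3.38 ± 0.11 SE, adjusted p = 1.86e-07). In A549 OAS3 started at the same level, 19.1, 20.3 and 20.2 FPKM, and was at 8.20, 8.09 and 8.02 FPKM with ISP-I. It fell without overlap, by less than in H460 (-1.20 ± 0.06 SE, adjusted p = 3.23e-06).

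OAS1 was at 10.2, 11.0 and 12.4 FPKM in H460 controls and 2.49, 2.62 and 3.34 FPKM with ISP-I (log2 change -1.68 ± 0.13 SE, adjusted p = 8.73e-06). In A549 it was low from the start, with means of 2.02 and 1.72 FPKM that did not pass (-0.15, 95% interval -0.35 to 0.05). OAS2 fell in H460 from a mean of 0.348 to 0.0701 FPKM (97 and 22 reads over the 3 libraries) and was under the level tested in A549. OASL was at 0.158, 0.112 and 0.305 FPKM in H460 controls and 2.61, 3.06 and 3.89 FPKM with ISP-I, and rose (1.80 ± 0.13 SE, adjusted p = 5.56e-06). In A549 OASL was at 0.220, 0.368 and 0.501 FPKM and then 1.98, 1.54 and 1.78 FPKM (1.02 ± 0.10 SE, adjusted p = 5.95e-05). The 3 OAS genes stand next to each other on chromosome 12, from 112906783 to 113011723 (hg38), and OASL is on the same chromosome at 121019111 to 121039242.

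The IFITM proteins sit in membranes and stop viral entry. They are paralogs of near-identical sequence, so reads may have been split among them, and 16.3% of the exon bases of IFITM3 lie opposite other RNAs. IFITM3 was at 152, 166 and 160.2 FPKM in H460 controls and 57.4, 41.8 and 109.7 FPKM with ISP-I. All treated libraries were lower, and library 3 kept the most (log2 change -1.30 ± 0.30 SE, adjusted p = 0.00467). In A549 IFITM3 was at 6.11, 6.44 and 8.71 FPKM and then 4.71, 5.21 and 4.54 FPKM (-0.46, adjusted p = 0.013), and this call was lost in a fit of all 12 libraries (adjusted p = 0.152) and without ISP-I library 3 (adjusted p = 0.0534). IFITM2 fell from a mean of 7.02 to 2.06 FPKM in H460 (-1.44, adjusted p = 0.000326) and from 12.6 to 6.28 FPKM in A549 (-0.91, adjusted p = 4.23e-05). IFITM1 had at most 14 reads over the 3 libraries of a group.

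ISG15 is a ubiquitin-like protein joined to other proteins by the enzymes UBE2L6 and HERC5 and removed by USP18. In A549 ISG15 was at 6.73, 4.39 and 6.56 FPKM in controls and 14.4, 15.7 and 15.1 FPKM with ISP-I. It rose with no overlap (log2 change 1.24 ± 0.14 SE, adjusted p = 0.000123). In H460 ISG15 was at 8.02, 8.35 and 7.74 FPKM and then 7.94, 9.07 and 18.7 FPKM. The higher treated mean rested on library 3, and the change did not pass (0.42, adjusted p = 0.185; 0.07, adjusted p = 0.579, without that library). With median-of-ratios scaling it passed (0.68, adjusted p = 0.0475). The difference between lines was -0.82 (adjusted p = 0.0574), and without H460 ISP-I library 3 it was -1.17 and passed.

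UBE2L6, USP18 and HERC6 fell in both lines. UBE2L6, the conjugating enzyme, was at 4.15, 5.2045 and 6.54 FPKM in H460 controls and 0.434, 0.699 and 0.784 FPKM with ISP-I (log2 change -1.93 ± 0.16 SE, adjusted p = 1.18e-05). In A549 it went from 8.80, 8.74 and 9.46 FPKM to 4.71, 5.90 and 7.03 FPKM (-0.55 ± 0.12 SE, adjusted p = 0.00504). Neither line showed overlap. USP18, which also restrains IFNAR2 signalling and has a close copy, USP41, was at 8.45, 9.07 and 9.07 FPKM in H460 controls and 1.81, 1.49 and 1.70 FPKM with ISP-I (-1.89 ± 0.11 SE, adjusted p = 1.89e-06). In A549 USP18 went from 7.45, 6.44 and 7.29 FPKM to 3.89, 4.08 and 4.47 FPKM (-0.65 ± 0.08 SE, adjusted p = 0.000331). HERC6, a relative of the ligase HERC5, fell from 1.40 to 0.685 FPKM in H460 and, in A549, from 1.74 to 1.20 FPKM. HERC5 passed in neither line, with means of 1.04 and 0.864 FPKM in H460 and 1.17 and 1.52 FPKM in A549.

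PARP9 and DTX3L form a complex that modifies histones and ubiquitin, and their genes are read in opposite directions from the shared stretch shown above. PARP9 was at 1.51, 1.59 and 1.37 FPKM in H460 controls and 0.607, 0.564 and 0.279 FPKM with ISP-I, and fell (log2 change -0.75, adjusted p = 0.000268). In A549 it went from 1.97, 1.83 and 1.70 FPKM to 1.13, 1.15 and 1.08 FPKM (-0.42, adjusted p = 0.00141). Neither line had overlapping groups. DTX3L was at 4.84 and 5.13 FPKM in H460 (0.06, 95% interval -0.28 to 0.40) and 6.29 and 6.82 FPKM in A549 (0.10, 95% interval -0.08 to 0.28). PARP14, a mono-ADP-ribosyltransferase of the same locus, had means of 2.16 and 3.35 FPKM in H460 (0.43, adjusted p = 0.0574) and 5.10 and 3.64 FPKM in A549 (-0.38, adjusted p = 0.0596). Its H460 change passed with median-of-ratios scaling (0.65, adjusted p = 0.0114), with voom on the reads (0.88, adjusted p = 0.00582), in a fit of all 12 libraries (adjusted p = 0.0436) and without ISP-I library 3 (0.62, adjusted p = 0.00282). The A549 change of PARP14 was negative under all 12 alternatives, with adjusted p from 0.000179 to 0.173. A549 control library 3, at 3.72 FPKM, lay under the other controls at 5.47 and 6.10 FPKM.

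Of the other antiviral effectors, ISG20, an exonuclease that degrades RNA, rose in both lines. ISG20 was at 3.28, 3.22 and 3.07 FPKM in H460 controls and 11.1, 12.2 and 23.2 FPKM with ISP-I (log2 change 1.91 ± 0.24 SE, adjusted p = 0.000141; 1.59 without library 3). In A549 it was at 0.648, 0.703 and 0.860 FPKM and then 5.65, 5.58 and 5.54 FPKM (1.93 ± 0.08 SE, adjusted p = 1.03e-06). The groups lay apart in both lines. The difference between the 2 changes was -0.02 with a 95% interval of -0.62 to 0.58.

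RSAD2 (viperin), which makes a chain-terminating nucleotide, rose in H460 from 9 to 68 reads over the 3 libraries (0.0424 and 0.294 FPKM, adjusted p = 0.0019). CMPK2, a nucleotide kinase read from the opposite strand of the same locus, fell in H460 from 89 to 17 reads (0.464 and 0.0797 FPKM, adjusted p = 0.000979). Both were under the level tested in A549. BST2 (tetherin), which holds virions at the cell surface, was at 0.631, 1.67 and 2.44 FPKM in H460 controls and 0.864, 0.327 and 0.367 FPKM with ISP-I. The groups overlapped, and its fall (log2 change -0.72, adjusted p = 0.0331) was lost under 7 of the 12 alternatives; without control library 3 it was -0.48 (adjusted p = 0.112). SAMD9L, a translation repressor, fell in H460 from 0.347 to 0.149 FPKM (adjusted p = 0.0181), a call lost under 5 alternatives, and its paralog SAMD9 passed in neither line.

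LGALS3BP, a secreted glycoprotein that binds galectins, changed by more than any other member in H460. It was at 153.3, 172 and 155 FPKM in H460 controls and 5.36, 4.0001 and 4.96 FPKM with ISP-I. The treated mean was 0.0298 of the control mean (log2 change -4.81 ± 0.13 SE, adjusted p = 9.5e-08). In A549 it was at 81.3, 85.2 and 102 FPKM and then 35.7, 32.9 and 33.4 FPKM. It fell there without overlap (-1.36 ± 0.09 SE, adjusted p = 1.12e-05). LGALS9, which encodes galectin-9, had means of 0.204 to 0.284 FPKM and passed in neither line.

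The IFI genes among the members either fell or did not pass, unlike IFI16, given above, which is not a member. IFI6, a mitochondrial protein that opposes apoptosis, was at 19.9, 23.9 and 14.99 FPKM in H460 controls and 5.45, 4.35 and 9.84 FPKM with ISP-I, all lower (log2 change -1.49, adjusted p = 0.00109). Its A549 values were 2.67, 2.67 and 5.79 FPKM and then 1.91, 2.12 and 1.90 FPKM (-0.60, adjusted p = 0.047). Without A549 control library 3 the IFI6 change was -0.30, and the call was lost when any 1 of the ISP-I libraries was left out (adjusted p = 0.0952 to 0.122), with no filter, with voom and in a fit of all 12 libraries. The gene shares 23.1% of its exon bases with the RNA LINC02574.

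IFI35, a partner of the transcription regulator NMI, fell in H460 from 15.7 to 6.44 FPKM (log2 change -1.20, adjusted p = 0.000733) and was at 12.4 and 9.79 FPKM in A549 (-0.30, adjusted p = 0.076). IFI44 was at 14.1, 10.8 and 10.7 FPKM in H460 controls and 2.83, 4.33 and 3.60 FPKM with ISP-I, without overlap (-1.49 ± 0.16 SE, adjusted p = 5.77e-05). Its neighbour IFI44L fell in H460 from 2.86 to 1.09 FPKM (-0.89, adjusted p = 0.000271). In A549 IFI44 had means of 0.123 and 0.133 FPKM, and IFI44L gave 1 read in all 6 libraries. IFI27 fell in H460 from 0.483 to 0.249 FPKM (adjusted p = 0.036), a call lost under 6 alternatives. EPSTI1 had means of 1.58 and 2.02 FPKM in H460 (0.23, adjusted p = 0.0902) and gave 1 read in A549. The EPSTI1 change passed with median-of-ratios scaling (0.42, adjusted p = 0.00984), with voom (adjusted p = 0.0104), in a fit of all 12 libraries (adjusted p = 0.0118) and without ISP-I library 3 (0.30, adjusted p = 0.0303).

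**Figure D4:**
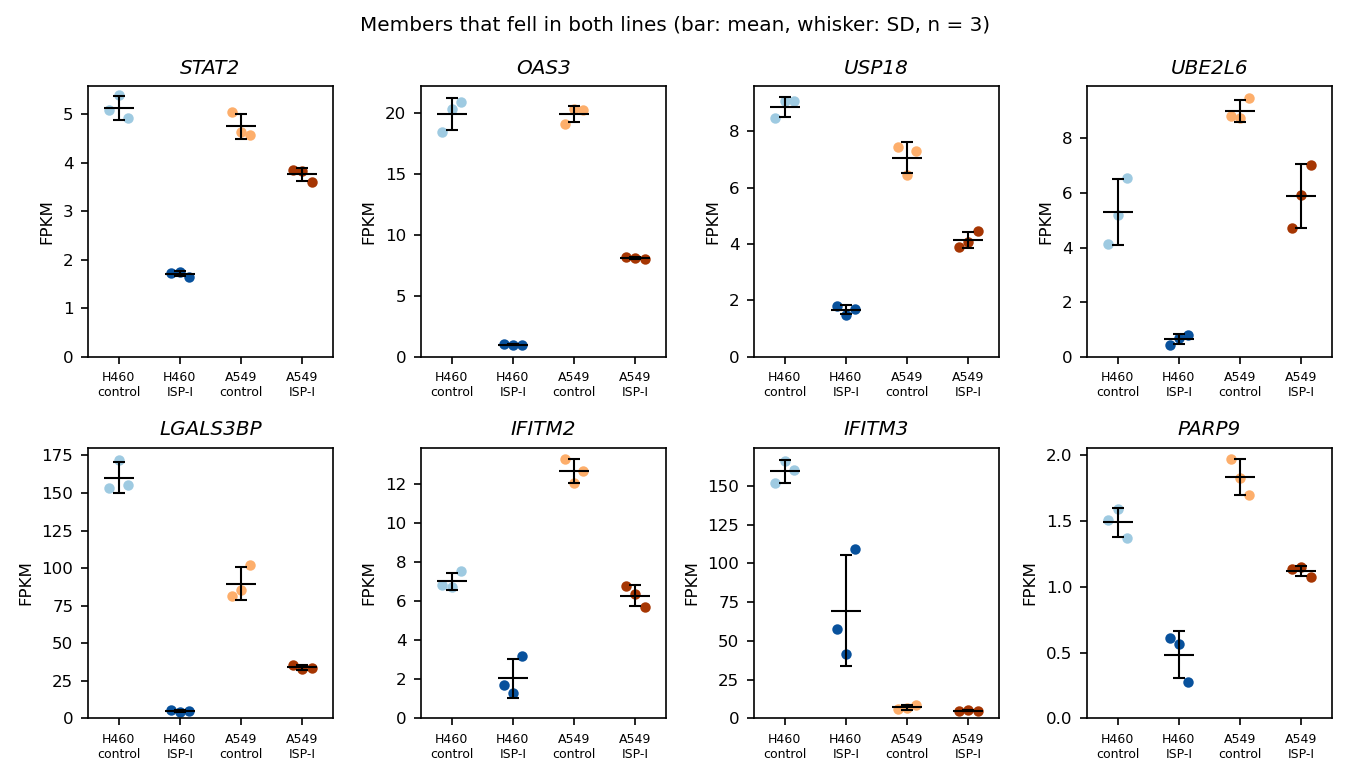
FPKM of 8 of the 10 members that fell in both lines, in each library, on a linear axis from 0 for each gene; points are libraries, bars the mean and whiskers the SD (n = 3 per group). Treated points lie below the controls of the same line in every panel, and the H460 drop is the longer one for OAS3 (19.9 to 1.001 FPKM, against 19.9 to 8.10 FPKM in A549). The genes shown were chosen by their calls, and how many of all genes separate in this way was not counted.

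Targets of interferon gamma and of inflammatory signals were set beside the members. Of 10 tested in H460, 5 rose (50%) and 3 fell (30%), against 27.6% and 41.5% of all genes. Of 12 tested in A549, 4 rose (33.3%) and 0 fell at the same adjusted p, against 30.5% and 27% of all genes. The median log2 changes were 0.14 and 0.12 (all genes -0.15 and 0.02). CXCL11, a chemokine for T cells, had 0 reads in all 6 control libraries and reached 2.18 FPKM in H460 and 6.53 FPKM in A549 with ISP-I. It was tested only through its level with ISP-I, as was GBP5 in A549 (0.00557 and 0.224 FPKM). APOL3 in H460 (0.458 and 0.0661 FPKM) was tested only through its control level. Such genes, which the counts include, could hardly have been called in the other direction. The chemokine CCL5 rose from 0.226 to 1.27 FPKM in H460 and, in A549, from 0.227 to 0.946 FPKM, and the factor BATF2 from 2.38 to 3.45 FPKM and from 0.381 to 3.09 FPKM. APOL1 fell from 2.09 to 0.0960 FPKM in H460 and was at 2.35 and 2.27 FPKM in A549.

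Whether the lines answered by different amounts was tested directly, as the difference of the 2 changes. Of 40 members tested, 1 was more positive in H460 and 6 were more negative (adjusted p under 0.05 and more than 2-fold), against 5.93% and 10.1% of 13953 genes. With median-of-ratios scaling, which moved the median of all genes from -0.16 to 0.02, 3 were more positive and 6 more negative, against 9.3% and 5.91% of all genes. IFIT2 was the member more positive in H460, with a difference of 1.63 ± 0.22 SE (adjusted p = 6.58e-05). LGALS3BP differed by -3.44 ± 0.16 SE (adjusted p = 1.55e-08), OAS3 by -2.18 ± 0.11 SE (adjusted p = 2.34e-08) and OAS1 by -1.53 ± 0.15 SE (adjusted p = 4.74e-06). IFI44, UBE2L6 and USP18 differed by -1.50, -1.38 and -1.24. For OAS1 and IFI44 the A549 level was low before treatment, whereas OAS3 started at 19.9 FPKM in both lines. OASL rose by 0.78 more in H460 (adjusted p = 0.00188) and IFIT5 by 0.71 more in A549 (adjusted p = 0.0488), each short of 2-fold, and for IFIT3 the difference was -0.15 with an interval of -0.77 to 0.46. PARP14 was 0.81 more positive in H460 (adjusted p = 0.0171).

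Before treatment the lines differed in these genes. Of 40 members tested, 17 were higher in H460 controls and 7 lower, where 28.6% of 13532 genes were higher and 31.6% lower. Among the 17, EPSTI1, IFI44L, OAS2, CMPK2 and DHX58 averaged under 0.1 FPKM in A549 controls. They were tested only through their H460 level and could hardly have been called lower. The same filter applied to all genes. Past 2-fold on the log2(FPKM + 1) scale, 7 were higher and 0 lower, against 5.64% higher and 8.78% lower. With a pseudocount of 0.1, 13 were higher and 2 lower (PARP14 and SAMD9), against 10.1% and 16.6% of all genes. The 7 were OAS1, IFITM3, ISG20, IFI6, IFI44, IFI44L and EPSTI1. IFITM3 had 22.5 times the A549 level (159.5 and 7.09 FPKM, log2 difference 4.32 ± 0.12 SE, adjusted p = 2.16e-08), and IFI44 96.5 times (11.9 and 0.123 FPKM, adjusted p = 5.5e-08). IFI44L and EPSTI1 were at 2.86 and 1.58 FPKM in H460 and gave 1 read each in the A549 controls. OAS3 was at 19.9 FPKM in each line (difference -0.001, 95% interval -0.19 to 0.19), and STAT2 at 5.13 and 4.75 FPKM did not pass. PARP14, IFITM2, UBE2L6, IRF7, SAMD9, IRF1 and DTX3L were lower in H460, PARP14 by 0.93 and IFITM2 by 0.77 on the log2 scale.

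**Figure D5:**
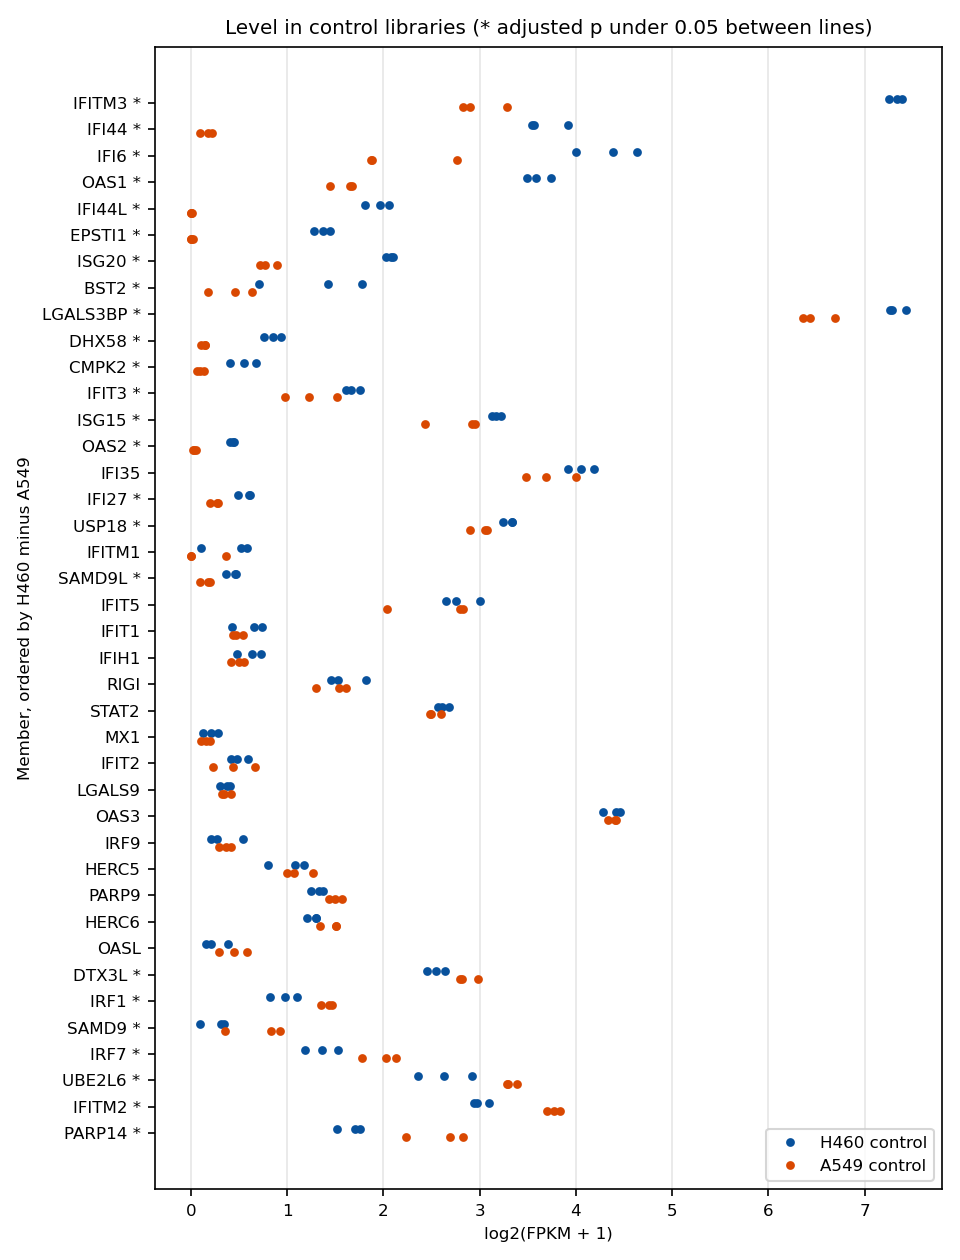
Level of the 40 members tested in the control libraries of H460 and A549, as log2(FPKM + 1), each point a library, with members ordered by the difference between the lines and a star where the adjusted p is under 0.05. IFITM3, IFI44, IFI6 and OAS1 at the top are far to the right in H460, and the points of OAS3 coincide.

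The type I interferon genes lie on chromosome 9p21, a region that some tumor lines have lost. Of 9 neighbouring genes, 1 of 6 tested rose and 3 fell in H460, where 27.6% of all genes were higher and 41.5% lower. In A549 2 of 5 rose and 2 fell, where 30.5% of all genes were higher and 27% lower. HACD4 (0.310 and 0.0855 FPKM in A549) was tested there only through its control level and could hardly have been called higher. MTAP was at 4.93 and 3.55 FPKM in H460 and at 0.0332 and 0.0420 FPKM in A549, and KLHL9 was at 7.65 FPKM in H460 controls and 9.89 FPKM in A549 controls and rose in both lines. Read levels do not measure gene copies.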

How the data were processed

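The authors extracted total RNA and sequenced both ends of its fragments. Reads were filtered (FastQC), aligned to hg38 (HISAT2) and counted (HTSeq 0.9.1), and FPKM per gene were deposited; the annotation and strand setting are not given in the sources used here. The deposited column of gene length holds bases and no sample's value. Broken lines (4) were left out. The product of FPKM and length came in whole steps for 100% of values (tolerance 0.05 reads), which gave the reads. In each line, limma 3.58.1 (R 4.3.3, mean-variance trend) compared log2(FPKM + 1) of 3 ISP-I and 3 control libraries over genes averaging 0.1 FPKM or more, with Benjamini-Hochberg adjustment over all genes. The pseudocount of 1 understates changes of low genes. The difference between lines was the interaction in a fit of all 12 libraries, called past 2-fold. The test was checked on simulated counts with equal noise in every library and changes only in genes at 1 FPKM or more. That check therefore does not cover low members or a library that stands apart. Exon overlaps are from GENCODE. Alternatives were no filter or a mean of 1 FPKM, a pseudocount of 0.1, median-of-ratios scaling, voom on genes with at least 10 reads in 3 libraries, 1 fit of all libraries (not for the difference between lines) and leaving out each library. Members, lists and tests were chosen with earlier results of these data known. Members with a mean of at least 1 FPKM in any group could be named with each library's value. List genes were named by the 3 smallest p in each line or as core pathway genes.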

Additional observations from a re-analysis of the deposited data

Results flagged for a closer look

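The change after ISP-I differed between the lines, by a test of the difference itself and by more than 2-fold, for 7 members. Given as H460 minus A549 on the log2(FPKM + 1) scale, it was 1.63 for IFIT2, -1.53 for OAS1, -2.18 for OAS3, -1.38 for UBE2L6, -1.24 for USP18, -1.50 for IFI44 and -3.44 for LGALS3BP. The difference for IFI44 was -1.40 (adjusted p = 0.112) with voom on the recovered reads; IFI44 had 11 and 12 reads over the 3 A549 libraries of each group. With groups of 3 libraries, single libraries were not tested as outliers.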

How the results depend on the processing

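No paired analysis was possible because the columns of the table carry no replicate numbers of the labels. Over all alternatives, the called members gave 919 values, of which 0 changed sign and 50 were no longer past the threshold; members that had missed it gave 1087 values, of which 53 changed sign, 0 of them past the threshold, and 56 passed it. In H460 8 to 11 members were higher and 17 to 19 lower when a library was left out, in A549 6 to 7 and 8 to 13, and between control lines 14 to 18 and 5 to 8. Of all genes, 24.6% to 29.9% were then higher and 37.3% to 43.7% lower in H460. In A549 these shares were 25.2% to 34.4% and 22.5% to 32.3%, and between control lines 24.9% to 29.9% and 27.1% to 35.1%. For the difference between lines, leaving out a library gave 1 more positive and 6 to 10 more negative members. The 10 were without H460 ISP-I library 3, where 12.1% of all genes were more negative. More positive members numbered 3 with a pseudocount of 0.1, 3 with median-of-ratios scaling and 6 with voom (10.4%, 9.3% and 15.2% of all genes), and more negative members 12 with the pseudocount of 0.1 (20% of all genes). Filtering at an average of 1 FPKM, 10 of 24 members tested were higher in H460 controls and 6 lower, against 31% and 30.8% of all genes. The difference between lines of IFIT3 was 0.13 with median-of-ratios scaling and -0.37 to 0.11 when a library was left out, and that of ISG20 0.31 and -0.33 to 0.17. The control difference of OAS3 was 0.046 with this scaling, 0.049 with voom and -0.037 to 0.050 when a library was left out. Without A549 control library 2, the ISG15 control difference was 0.24 (0.41 with it) and no longer passed. The causes were not tested. Genes averaging under 0.1 FPKM over the libraries compared were not tested. A gene near 0 in its lower group was tested where its other group raised that average. Its call could then hardly have gone the other way.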
